A study of Solanum lycopersicum with 8 samples.

Results

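The heated leaves of tomato plants with suppressed HsfA2 are compared here with the heated leaves of wild type (WT) plants, gene by gene. The comparison rests on 2 of the study's 8 libraries, 1 from A2AS heated leaf and 1 from WT heated leaf. A2AS is the study's name for transgenic tomato in which an antisense construct lowers HsfA2. Of 29345 genes in the tables, the 8727 that averaged 10 CPM or more over the pair were compared. CPM are sequence tags scaled to 1000000 per library. The assay was MACE (massive analysis of cDNA ends), which reads about 1 tag from the 3′ end of each polyadenylated transcript, so values carry no gene length.

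Both libraries were made from young leaves of cultivar Moneymaker plants aged 8 weeks, grown in a glasshouse with 16 h days at 24 °C and 8 h nights at 20 °C. The A2AS heated leaf and WT heated leaf plants were placed under 120 μmol m−2 s−1 of light in a chamber, kept for 1 h at 39 °C and then for 1.5 h at 24 °C. Unheated A2AS and WT leaves of the same age are set beside them, and the labels do not describe how unheated plants were handled. Which promoter drives the transgene, how many lines were used and whether plants were pooled are not given in the labels. With 1 library in each group there is no replicate check. A ratio therefore compares 2 libraries, and differences between plants, growth and genotype cannot be told apart in it.

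Heat stress transcription factors (Hsfs) bind short repeated elements in promoters and switch on genes for chaperones, proteins that hold or refold other proteins. In tomato, HsfA1a starts this response, and HsfA2 is made during heat stress and then works together with HsfA1a to keep chaperone genes active. In leaves the most abundant transcripts otherwise encode the photosynthetic machinery: Rubisco, which fixes CO2, and the chlorophyll a/b-binding (CAB) proteins, which harvest light.

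HsfA2 (Solyc08g062960) checks the genotype label. It stood at 2.72 CPM in A2AS heated leaf, against 21.7 CPM in WT heated leaf, and at 2.25 CPM in A2AS unheated leaf, against 10.3 CPM in WT unheated leaf. HsfA2 was thus lower in both A2AS leaf libraries, by 7.98-fold in the heated pair (95% counting interval 4.90 to 13.9). Such intervals, given in brackets below, cover counting error only. Whether reads were assigned by strand is not stated in the labels, so transcripts of an antisense construct and of HsfA2 itself cannot be told apart.

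The A2AS heated leaf library was the shallowest of the study, at 6243965 reads, and the WT heated leaf library held 13857252. In these libraries 3 reads equal 0.480 CPM and 0.216 CPM. All 29345 genes together summed to 733993 CPM in A2AS heated leaf and 711422 CPM in WT heated leaf. The 100 most abundant genes took 38.4% of that sum in A2AS heated leaf and 26.3% in WT heated leaf. The libraries are from whole leaf tissue, so fewer cells of a type and less RNA per cell cannot be told apart. The leaf genes of the Rubisco and CAB lists were abundant in both libraries. The anther markers LAT52, MS10, MS32 and AMS summed to 3.76 CPM in A2AS heated leaf and 5.85 CPM in WT heated leaf, and none of the 4 reached the minimum.

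Ratios are log2 of (A2AS + 1) over (WT + 1), and folds are ratios of the CPM values. In heated leaf 300 genes, 3.44% of those compared, were at least 2-fold higher in A2AS, and 568, 6.51%, were at least 2-fold lower. Both directions together made 868 genes, 9.95%. The median log2 ratio of all 8727 genes was −0.32, and 6472 ratios lay below 0 against 2255 above. Most genes thus stood slightly lower in A2AS, beside a smaller number that stood higher.

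That split depended on the scaling. Median-ratio scaling, which sets the typical gene found in both libraries equal, brought the median to −0.06. It gave 506 genes higher in A2AS, or 5.8% of those compared, and 235 lower, or 2.69%, together 8.49%. The order of the counts therefore turned round, and counts for the gene groups described below are given under both scalings where these change them. At 4-fold or more the counts were 52 higher and 38 lower without rescaling, and at 8-fold or more 11 and 9.

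**Figure D1:**
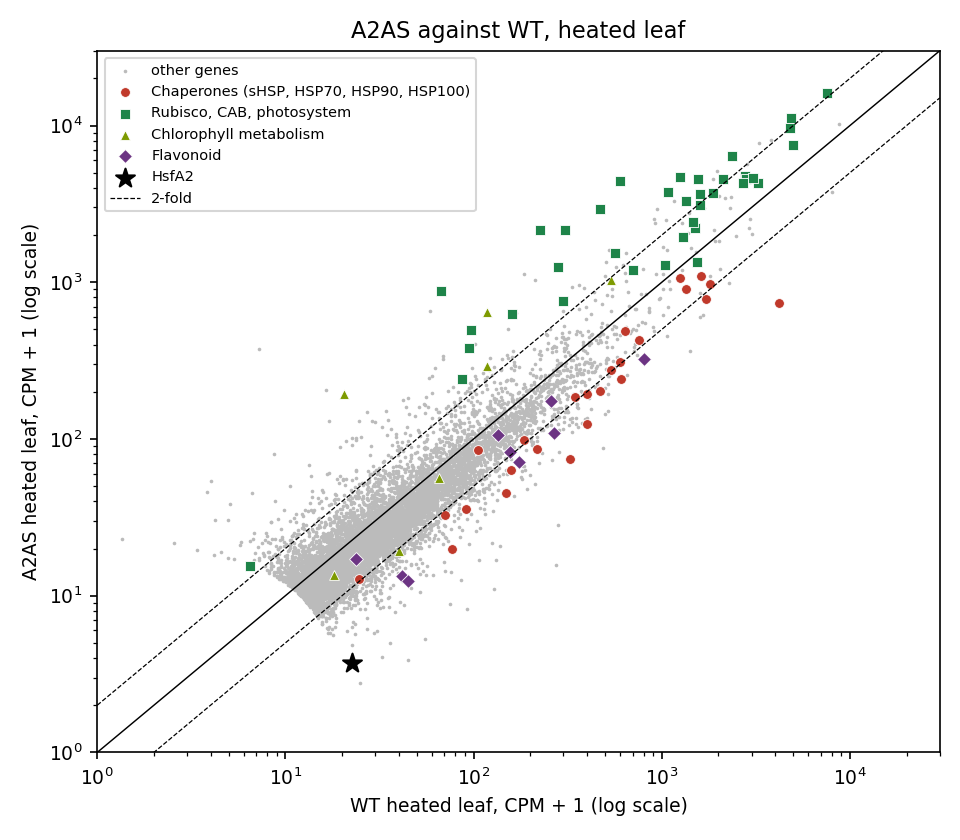
Levels of the 8727 compared genes in A2AS heated leaf (vertical) and WT heated leaf (horizontal), in CPM + 1 on log axes, 1 library each. Coloured points are listed chaperone, photosynthesis, chlorophyll metabolism and flavonoid genes, and a star marks HsfA2. Without rescaling the chaperones lie below the diagonal, and 36 of the 37 photosynthesis genes lie above it.

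The most abundant genes differed from the rest. Among the 100 most abundant genes of the pair, each averaging 769 CPM or more, 31 were at least 2-fold higher in A2AS and 7 lower, and the median log2 ratio was 0.64. After median-ratio scaling these were 45 higher and 4 lower, with a median of 0.92. The next 900 genes had 62 higher and 84 lower, with a median of −0.29, and 94 higher and 43 lower after rescaling, with a median of −0.02. The remaining 7727 genes had 207 higher and 477 lower, with a median of −0.33, and 367 higher and 188 lower after rescaling, with a median of −0.07. In both of these classes the larger count thus changed side with the scaling, while in the most abundant 100 it did not.

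Chaperone genes stood lower in A2AS heated leaf. Of 25 listed small heat shock protein (sHSP), HSP70, HSP90 and HSP100 genes, 13 were at least 2-fold lower in A2AS heated leaf and none was higher, against 6.51% lower over all genes. Under median-ratio scaling 9 were lower, against 2.69% over all genes. The median log2 ratio of the 25 genes was −1.04, or −0.76 after rescaling. All 25 ratios were below 0 without rescaling, as were 6472 of all 8727, while after it the HSP90 gene Solyc07g065840 stood at 0.05. Together they made 8551 CPM in A2AS heated leaf and 18089 CPM in WT heated leaf, a sum 2.12-fold lower in A2AS.

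Small heat shock proteins bind unfolding proteins and keep them from clumping. All 12 listed sHSP genes passed the minimum, and 4 were at least 2-fold lower in A2AS (2 after median-ratio scaling). Over all genes 6.51% were lower, or 2.69% after that scaling. Chloroplast HSP21 (Solyc03g082420) had 741 CPM in A2AS heated leaf and 4221 CPM in WT heated leaf, and 25.8 CPM in A2AS unheated leaf against 242 CPM in WT unheated leaf. It was the lowest member in the heated pair, 5.70-fold lower in A2AS (5.53 to 5.87). Its log2 ratio was −2.51.

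The other 3 were nearer to 2-fold. Solyc09g015020, a cytosolic class I gene, had 84.7 CPM in A2AS heated leaf and 216 CPM in WT heated leaf, 2.55-fold lower (2.33 to 2.80). Solyc06g076520, also of class I, had 778 CPM in A2AS heated leaf and 1722 CPM in WT heated leaf, 2.21-fold lower (2.15 to 2.28). The mitochondrial sHSP gene Solyc08g078700 had 193 CPM in A2AS heated leaf and 397 CPM in WT heated leaf, 2.06-fold lower (1.94 to 2.19). The remaining 8 lay between these and a log2 ratio of −0.39, which was the value of Solyc06g076560 at 489 CPM in A2AS heated leaf and 639 CPM in WT heated leaf. Class I genes are near-identical in sequence, and no source here says how a read that fits several of them was counted, so a single member's value is less sure than the group's.

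HSP70 proteins fold new and damaged proteins in cycles driven by ATP. Of 7 listed HSP70 genes outside the endoplasmic reticulum, 5 were at least 2-fold lower in A2AS under both scalings, with a median log2 ratio of −1.35. The share lower over all genes was 6.51%, or 2.69% after median-ratio scaling. Solyc06g076020 had 18.9 CPM in A2AS heated leaf and 75.6 CPM in WT heated leaf, 4.0-fold lower (3.30 to 4.88). Solyc11g066100 had 44.4 CPM in A2AS heated leaf and 148 CPM in WT heated leaf, 3.33-fold lower (2.94 to 3.79). The widest ratios here fell on members of moderate level, and the most abundant of the 4 named, Solyc04g011440, had 123 CPM in A2AS heated leaf and 402 CPM in WT heated leaf, 3.27-fold lower (3.03 to 3.53). Solyc10g086410 had 34.8 CPM in A2AS heated leaf and 90.3 CPM in WT heated leaf, 2.60-fold lower (2.25 to 3.01).

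HSP90 proteins mature signalling proteins, and the 4 listed genes differed among themselves. Solyc06g036290 had 201 CPM in A2AS heated leaf and 471 CPM in WT heated leaf, 2.34-fold lower (2.21 to 2.49). Solyc03g007890 had 31.6 CPM in A2AS heated leaf and 69.3 CPM in WT heated leaf, 2.20-fold lower (1.88 to 2.58). Neither of these was past 2-fold after median-ratio scaling. Solyc07g065840 had 1069 CPM in A2AS heated leaf and 1255 CPM in WT heated leaf, and Solyc12g015880 had 84.1 CPM in A2AS heated leaf and 104 CPM in WT heated leaf, with log2 ratios of −0.23 and −0.31 that lay close to the median of all genes.

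The HSP100 proteins pull apart protein aggregates, and both listed genes were at least 2-fold lower under both scalings. The shares lower over all genes were 6.51% and, after median-ratio scaling, 2.69%. HSP101 (Solyc03g115230), the cytosolic form, had 62.5 CPM in A2AS heated leaf and 156 CPM in WT heated leaf, 2.51-fold lower (2.25 to 2.80). The organellar ClpB gene Solyc02g088610 had 74.0 CPM in A2AS heated leaf, against 323 CPM in WT heated leaf, and was 4.36-fold lower (3.96 to 4.81). ClpB differed less between the unheated libraries, at 26.0 CPM in A2AS and 44.4 CPM in WT, so its ratio was wider in the heated pair (log2 −2.11 against −0.75). The MBF1 coactivator gene Solyc01g104740 had 13 CPM in A2AS heated leaf and 32.0 CPM in WT heated leaf, 2.47-fold lower (1.95 to 3.17), and fell just short of 2-fold after median-ratio scaling. Its ratio was wider in the unheated pair, at 5.44 CPM in A2AS and 65.5 CPM in WT, 12.0-fold lower (9.49 to 15.5).

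Chaperones of the endoplasmic reticulum, which fold secreted proteins and answer to other stress sensors, were listed apart. None of the 4 measured members of this list reached 2-fold, and their median log2 ratio was 0.01. Calnexin had the widest ratio, with 158 CPM in A2AS heated leaf and 217 CPM in WT heated leaf (log2 −0.46). Calreticulin had 360 CPM in A2AS heated leaf and 316 CPM in WT heated leaf. BiP gene Solyc08g082820 had 72.9 CPM in A2AS heated leaf and 67.1 CPM in WT heated leaf, and BiP gene Solyc03g082920 had 120 CPM in A2AS heated leaf and 129 CPM in WT heated leaf. The sHSP of the endoplasmic reticulum, Solyc11g020330, is counted with the sHSP genes and had 307 CPM in A2AS heated leaf and 596 CPM in WT heated leaf (log2 −0.95).

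Of the other Hsf genes, none was 2-fold different, and 6 of 14 listed Hsf genes, HsfA2 included, reached the minimum. HsfA1a, the factor that starts the response, had 18.3 CPM in A2AS heated leaf and 27.2 CPM in WT heated leaf (log2 −0.55). HsfB1, which can act with class A factors or repress them, had 29.9 CPM in A2AS heated leaf and 47.6 CPM in WT heated leaf (log2 −0.65). HsfB2a had 19.9 CPM in A2AS heated leaf and 31.9 CPM in WT heated leaf (log2 −0.66). All 6 ratios were below 0, and their median was −0.60, or −0.33 after median-ratio scaling. Of all 8727 ratios 6472 were below 0 without rescaling, and the median was −0.32, or −0.06 after it.

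**Figure D2:**
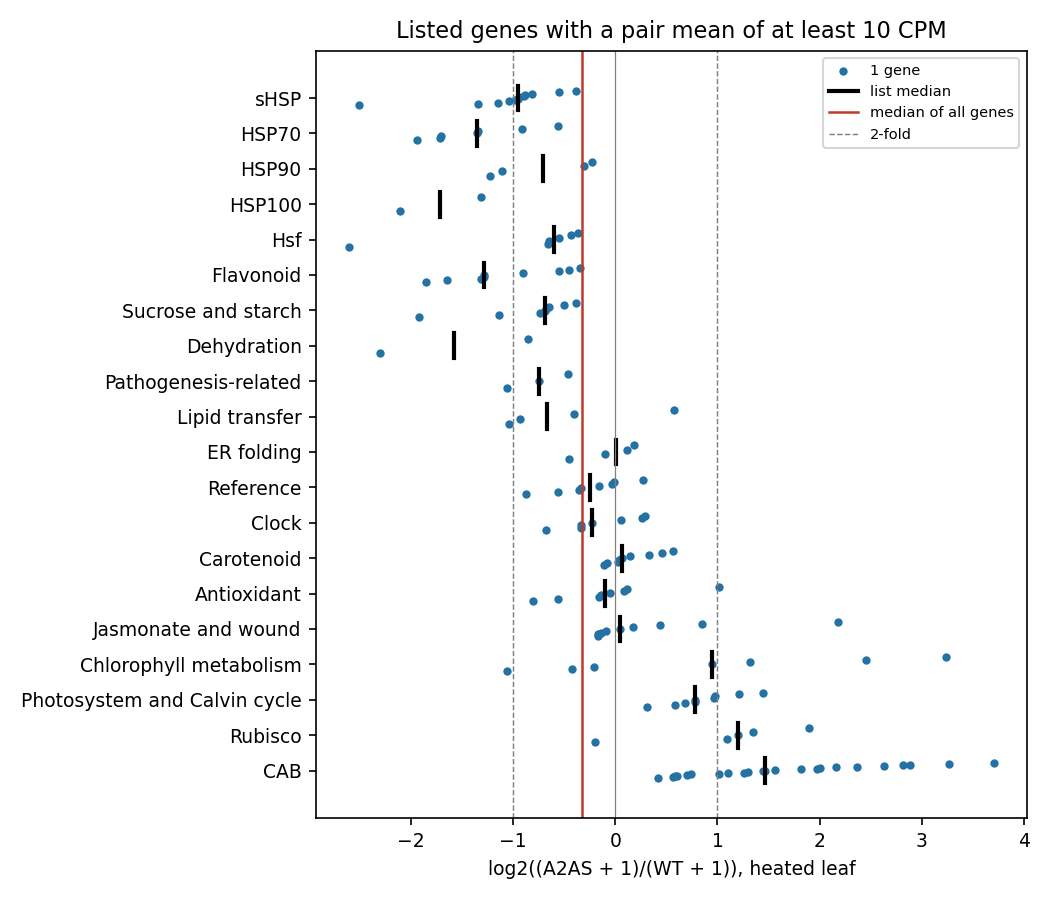
Log2 ratio of A2AS over WT in heated leaf for each listed gene at the minimum of 10 CPM, 1 point per gene, grouped by list; short bars are list medians and lines mark 2-fold. The CAB and Rubisco lists lie to the right and the HSP100, HSP70 and flavonoid lists to the left, with medians of 1.47, 1.2, −1.71, −1.35 and −1.28.

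Photosynthesis genes stood higher in A2AS heated leaf. Of 37 listed Rubisco, CAB, photosystem and Calvin cycle genes, 23 were at least 2-fold higher in A2AS heated leaf and none was lower, against 3.44% higher over all genes. Under median-ratio scaling 28 were higher, against 5.8% over all genes. The same shares of all genes stand beside the counts of each list among them. The median log2 ratio was 1.21, or 1.49 after rescaling. Together they made 133082 CPM in A2AS heated leaf and 62261 CPM in WT heated leaf, 2.14-fold higher in A2AS. They took 18.1% of the CPM of all 29345 genes in A2AS heated leaf and 8.75% in WT heated leaf. The 25 chaperones took 1.16% in A2AS heated leaf and 2.54% in WT heated leaf.

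**Figure D3:**
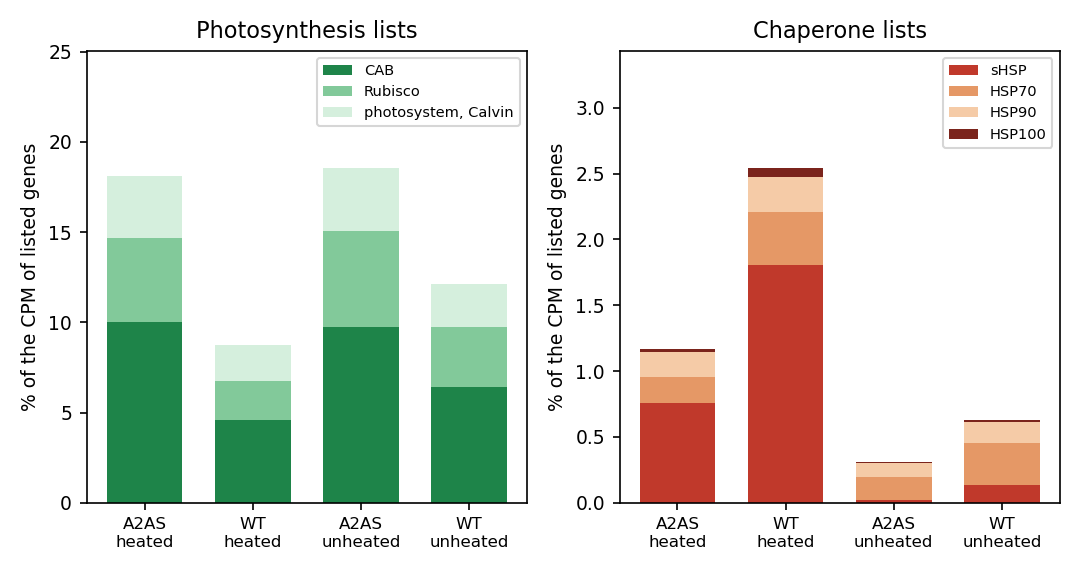
Share of the CPM of all 29345 genes (called listed genes on the axis) taken by photosynthesis genes and by chaperone genes in the 4 leaf libraries. Bars are in percent from 0, 1 library per bar, stacked by list. Photosynthesis genes took 18.1% in A2AS heated leaf and 8.75% in WT heated leaf, and chaperones took 1.16% in A2AS heated leaf and 2.54% in WT heated leaf.

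Of these 3 lists the CAB genes had the highest median log2 ratio, 1.47. Of 23 listed members 17 were at least 2-fold higher in A2AS (18 after median-ratio scaling), and all 23 ratios were above 0, ranging from 0.41 to 3.71. Solyc06g069730 had 875 CPM in A2AS heated leaf and 66.0 CPM in WT heated leaf, 13.3-fold higher (12.4 to 14.2). Solyc03g005780 had 4396 CPM in A2AS heated leaf and 596 CPM in WT heated leaf, 7.38-fold higher. At the other end, Solyc03g005760, of the same gene cluster as Solyc03g005780, had 4307 CPM in A2AS heated leaf and 3230 CPM in WT heated leaf.

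A cluster of 8 CAB genes on chromosome 2 was higher throughout. All 8 were at least 2-fold higher in A2AS, with a median log2 ratio of 2.26, and their sum was 23757 CPM in A2AS heated leaf and 6924 CPM in WT heated leaf, 3.43-fold higher. Within it Solyc02g071000 had 2162 CPM in A2AS heated leaf and 225 CPM in WT heated leaf, 9.63-fold higher. Solyc02g070970 had 2914 CPM in A2AS heated leaf and 471 CPM in WT heated leaf, 6.18-fold higher. Members of this cluster are close copies: in the whole list, only 3 of 23 CAB genes had values equal to whole reads, within 0.001 of a read, in both libraries, so the cluster sum is firmer than single members. The 4 CAB genes of the chromosome 3 cluster summed to 11153 CPM in A2AS heated leaf and 5409 CPM in WT heated leaf, 2.06-fold higher, and 2 of them passed 2-fold.

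Of 5 listed Rubisco and Rubisco activase genes 4 were at least 2-fold higher in A2AS under both scalings. RBCS1, a small subunit gene, had 4660 CPM in A2AS heated leaf and 1252 CPM in WT heated leaf, 3.72-fold higher (3.65 to 3.79). RBCS2A had 11211 CPM in A2AS heated leaf and 4886 CPM in WT heated leaf, 2.29-fold higher (2.27 to 2.32), and RBCS3 had 16121 CPM in A2AS heated leaf and 7541 CPM in WT heated leaf, 2.14-fold higher (2.12 to 2.16). The narrow intervals come from deep counts and say nothing of differences between plants. None of the 5 genes had whole-read values in both libraries. How reads that fit several copies were counted is not given, so the intervals leave that error out. Rubisco activase, which clears inhibitors from the enzyme, was split: Solyc10g086580 had 757 CPM in A2AS heated leaf and 296 CPM in WT heated leaf, 2.55-fold higher (2.45 to 2.66), while Solyc09g011080 had 1347 CPM in A2AS heated leaf and 1541 CPM in WT heated leaf.

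Of 9 listed photosystem and Calvin cycle genes, plastocyanin and PsaK passed 2-fold, and 6 of the 9 did so after median-ratio scaling. Plastocyanin, the copper protein that carries electrons to photosystem I, had 1536 CPM in A2AS heated leaf and 562 CPM in WT heated leaf, 2.73-fold higher (2.65 to 2.82). PsaK, a photosystem I subunit, had 3680 CPM in A2AS heated leaf and 1589 CPM in WT heated leaf, 2.32-fold higher. PsbO, of the oxygen-evolving complex, had 3699 CPM in A2AS heated leaf and 1877 CPM in WT heated leaf and lay just under the threshold at 1.97-fold.

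Of 7 measured genes of chlorophyll metabolism 3 were at least 2-fold higher in A2AS and 1 was lower, or 4 and none after median-ratio scaling. Over all genes 3.44% were higher and 6.51% lower, or 5.8% and 2.69% after that scaling. Protochlorophyllide oxidoreductase (POR), which makes chlorophyllide in light, was higher in A2AS. POR gene Solyc12g013710 had 192 CPM in A2AS heated leaf and 19.4 CPM in WT heated leaf, 9.88-fold higher (8.65 to 11.3), and POR gene Solyc10g006900 had 643 CPM in A2AS heated leaf and 116 CPM in WT heated leaf, 5.52-fold higher (5.21 to 5.86). HEMA1, a glutamyl-tRNA reductase at the entry of the pathway, had 293 CPM in A2AS heated leaf and 117 CPM in WT heated leaf, 2.51-fold higher (2.35 to 2.69). SGR1, which removes magnesium when chlorophyll is broken down, had 18.3 CPM in A2AS heated leaf and 39.2 CPM in WT heated leaf, 2.15-fold lower (1.75 to 2.65), and was under 2-fold after median-ratio scaling. The other 3 stayed under 2-fold without rescaling. CHLH, a subunit of magnesium chelatase, had 1036 CPM in A2AS heated leaf and 536 CPM in WT heated leaf (log2 0.95), and passed 2-fold after it. PAO, which opens the chlorophyll ring in breakdown, had 55.6 CPM in A2AS heated leaf and 64.5 CPM in WT heated leaf, and GLK1, a regulator of chloroplast genes, had 12.5 CPM in A2AS heated leaf and 17.1 CPM in WT heated leaf.

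Carotenoid genes did not share this pattern. None of the 9 listed members was 2-fold different, and their median log2 ratio was 0.06. The widest was PSY2, a phytoene synthase at the pathway's entry, with 150 CPM in A2AS heated leaf and 101 CPM in WT heated leaf.

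Flavonoid genes were lower in A2AS. Of 9 members at the minimum 5 were at least 2-fold lower under both scalings, none was higher, and the median log2 ratio was −1.28. Over all genes 6.51% were lower, or 2.69% after median-ratio scaling, and the median log2 ratio was −0.32. The late enzymes of anthocyanin synthesis had the widest ratios. Anthocyanidin synthase (ANS, Solyc08g080040) had 11.4 CPM in A2AS heated leaf and 43.7 CPM in WT heated leaf, 3.85-fold lower (3.0 to 4.99). Dihydroflavonol reductase (DFR) had 12.3 CPM in A2AS heated leaf and 40.8 CPM in WT heated leaf, 3.31-fold lower (2.60 to 4.25).

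The chalcone synthase genes, which make the first committed step, stood lower by a similar factor. CHS2 had 324 CPM in A2AS heated leaf and 808 CPM in WT heated leaf, 2.49-fold lower (2.38 to 2.61). CHS1 had 70.6 CPM in A2AS heated leaf and 173 CPM in WT heated leaf, 2.45-fold lower (2.22 to 2.72). ANS and DFR were below 50 CPM in both libraries, and with a minimum of 50 CPM 3 members remained lower.

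**Figure D4:**
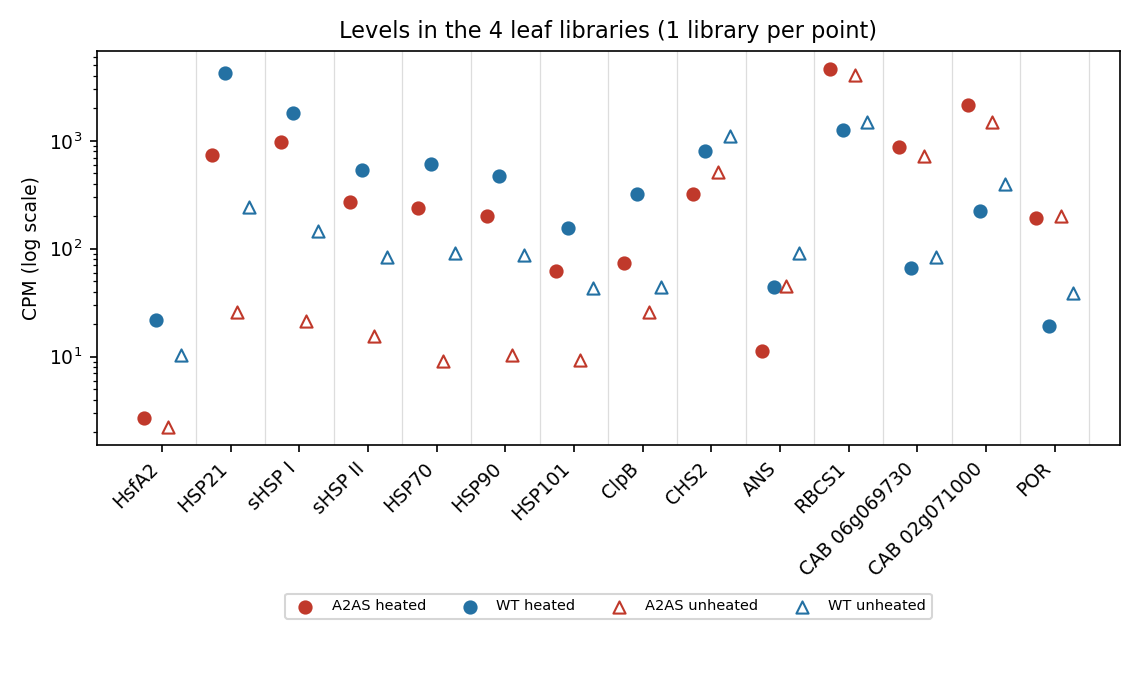
CPM (log axis) of named genes in the 4 leaf libraries, 1 library per point: A2AS heated, WT heated, A2AS unheated and WT unheated leaf. HsfA2 stood at 2.72, 21.7, 2.25 and 10.3 CPM in that order, and HSP21 at 741, 4221, 25.8 and 242 CPM.

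Single genes of other pathways were also far from 1. TAS14, a dehydrin made under drought and abscisic acid, had 7.69 CPM in A2AS heated leaf and 41.8 CPM in WT heated leaf, 5.44-fold lower (4.05 to 7.46). AGPL1 (Solyc01g109790), a subunit of the enzyme that commits sugar to starch, had 42.3 CPM in A2AS heated leaf and 163 CPM in WT heated leaf, 3.86-fold lower (3.40 to 4.40). LAPA (Solyc12g010020), a wound-induced leucine aminopeptidase, had 101 CPM in A2AS heated leaf and 21.5 CPM in WT heated leaf, 4.68-fold higher (4.07 to 5.38). In the lists around them, 1 of 9 jasmonate and wound genes was higher (2 of 9 after median-ratio scaling). Over all genes 3.44% were higher, or 5.8% after that scaling. Of 8 sucrose and starch genes 2 were lower (1 after median-ratio scaling), and all 8 ratios were below 0. Their median log2 ratio was −0.68, or −0.42 after rescaling. Over all genes 6.51% were lower (2.69% after rescaling), and 6472 of 8727 ratios lay below 0. The median of all genes was −0.32, or −0.06 after rescaling, so nothing about this list is read from its counts. The dehydration list had 2 measured genes, of which TAS14 was lower under both scalings and ASR1 had a log2 ratio of −0.85.

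Among 8 antioxidant genes, the Cu/Zn superoxide dismutase Solyc11g066390 was the only one past 2-fold, with 44.7 CPM in A2AS heated leaf and 21.6 CPM in WT heated leaf, 2.07-fold higher (1.75 to 2.45). Over all genes 3.44% were at least 2-fold higher and 6.51% lower. APX2, an ascorbate peroxidase, had 191 CPM in A2AS heated leaf and 336 CPM in WT heated leaf (log2 −0.81). Of 3 measured pathogenesis-related genes, glucanase A was 2-fold lower without rescaling, at 16.3 CPM in A2AS heated leaf and 35.1 CPM in WT heated leaf. None of 7 clock genes reached 2-fold: GI, which times flowering and clock output, had 46.3 CPM in A2AS heated leaf and 74.7 CPM in WT heated leaf. None of 8 common reference genes did either, with a median log2 ratio of −0.25, or 0.02 after median-ratio scaling. CAC, the reference gene farthest from 1, had 22.7 CPM in A2AS heated leaf and 42.4 CPM in WT heated leaf.

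Trichome and meristem markers were low in all 4 leaf libraries. MTS1, a monoterpene synthase of glandular trichomes, had 6.97 CPM in A2AS heated leaf and 1.53 CPM in WT heated leaf, 4.56-fold higher (2.71 to 8.23), and 7.90 CPM in A2AS unheated leaf against 2.34 CPM in WT unheated leaf. Both trichome markers found, MTS1 and NDPS1, summed to 9.86 CPM in A2AS heated leaf and 2.45 CPM in WT heated leaf, below the minimum. The meristem markers TKN1 and TKN2 summed to 3.36 CPM in A2AS heated leaf and 4.11 CPM in WT heated leaf. The trichome sum was higher in A2AS in both leaf pairs, at 13.6 CPM in A2AS unheated leaf and 5.64 CPM in WT unheated leaf. The meristem sum, lower in A2AS heated leaf, was 5.87 CPM in A2AS unheated leaf and 3.81 CPM in WT unheated leaf. The part of either set in the other ratios was not tested.

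The largest ratios of the pair belonged to genes in no list, for which the files give no name. Solyc01g081250 had 374 CPM in A2AS heated leaf and 6.28 CPM in WT heated leaf, 59.6-fold higher (48.1 to 74.8), against 9.60 CPM in A2AS unheated leaf and 3.64 CPM in WT unheated leaf. The same gene stood at 1306 CPM in A2AS heated anthers and 46.5 CPM in WT heated anthers. Solyc03g121900 had 21.9 CPM in A2AS heated leaf and 0.361 CPM in WT heated leaf, and 10.2 CPM in A2AS unheated leaf, while no read was found in WT unheated leaf. At the low end Solyc01g103920 had 14.8 CPM in A2AS heated leaf and 275 CPM in WT heated leaf, 18.5-fold lower (15.0 to 22.9), and Solyc06g068130 had 2.88 CPM in A2AS heated leaf and 43.9 CPM in WT heated leaf, 15.2-fold lower (9.55 to 25.9).

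Some of the 2-fold different genes had neighbouring IDs. Of the 300 higher genes 19.3% had a neighbour among the compared genes that was also higher, and of the 568 lower genes 16.5% had a lower neighbour. Over all compared genes 3.44% were higher and 6.51% lower, and each gene can have a neighbour on either side. The share that would arise without any grouping was not worked out, so none is read from these shares. They were counted without rescaling only. The longest run held 9 higher genes on chromosome 2, of which 8 were the CAB cluster. A run of 8 higher genes in no list, on chromosome 9, lay in 2 blocks of IDs that span 5070 in number, with no other compared gene between them. It summed to 1294 CPM in A2AS heated leaf and 178 CPM in WT heated leaf, and to 1070 CPM in A2AS unheated leaf and 424 CPM in WT unheated leaf. The longest lower run held 5 genes, also on chromosome 9, at 263 CPM in A2AS heated leaf and 651 CPM in WT heated leaf.

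How far these differences were present without heat was read from the unheated leaf pair, which shares no library with the heated one. There 161 genes, 1.93% of 8331 compared, were at least 2-fold higher in A2AS, and 230, 2.76%, were lower, 4.69% in all. Of the 300 genes higher in A2AS heated leaf 110 were also higher in the unheated pair, which is 36.7% of the heated and 68.3% of the unheated list. Of the 568 lower genes 151 were also lower, 26.6% of the heated and 65.7% of the unheated list. No gene was 2-fold different in opposite directions.

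The direction was shared more widely than the 2-fold call. Of 278 higher genes that reached the minimum in the unheated pair, 273 had a ratio above 0 there (276 after median-ratio scaling). Of 478 lower genes 469 had a ratio below 0 (450 after rescaling). Over all 8033 genes at the minimum in both pairs the unheated median log2 ratio was −0.21. Most genes thus lay below 0 there without rescaling, called or not, and the share of all genes on each side was not worked out. The higher genes had median log2 ratios of 1.29 in heated and 0.88 in unheated leaf, and the lower genes −1.19 in heated and −0.76 in unheated leaf. Since these genes were taken for their ratio in the heated pair, a wider ratio there is built into the choice, and nothing is read from it.

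**Figure D5:**
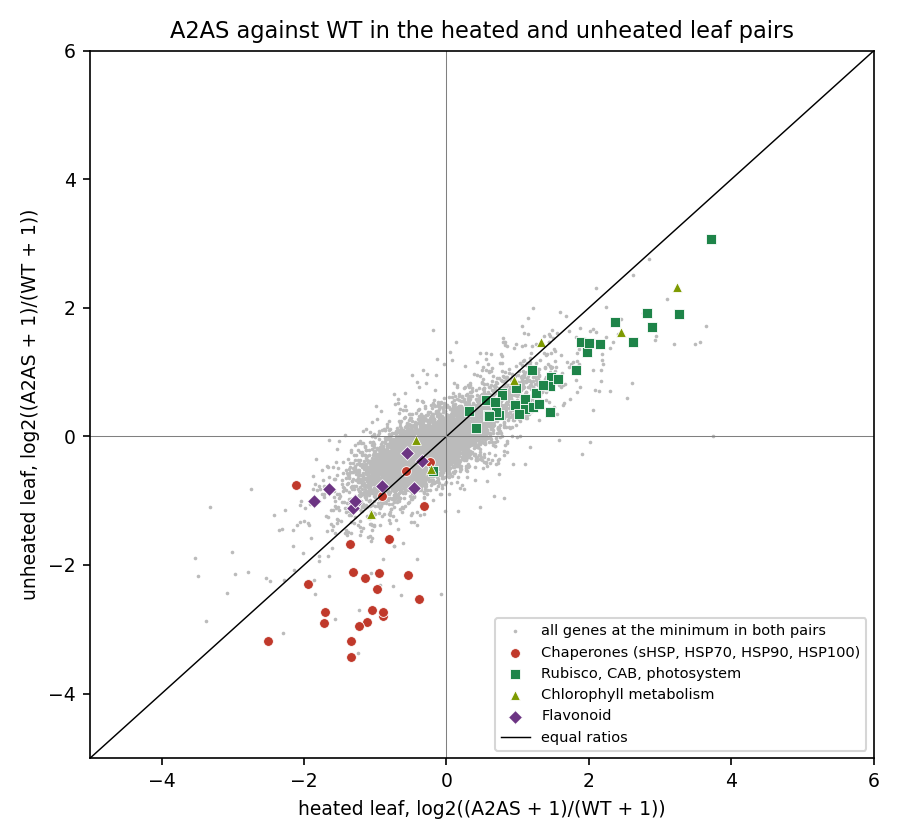
Log2 ratio of A2AS over WT in heated leaf (horizontal) and unheated leaf (vertical) for the 8033 genes at the minimum in both pairs. Listed chaperone, photosynthesis, chlorophyll metabolism and flavonoid genes are coloured. The chaperone median is −1.04 in heated and −2.33 in unheated leaf, but not every list follows. The HSP100 median is −1.71 in heated and −1.43 in unheated leaf. Photosynthesis genes lie above 0 in both pairs, except 1 Rubisco activase gene.

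The listed chaperones had a median log2 ratio of −1.04 in heated and −2.33 in unheated leaf, and in the unheated pair 20 of 24 stood lower by 2-fold or more. All 12 sHSP genes had a wider ratio in unheated leaf, where they summed to 159 CPM in A2AS and 972 CPM in WT, 6.13-fold lower, against 5562 CPM in A2AS and 12859 CPM in WT after heat, 2.31-fold lower. For sHSP genes the gap in CPM was larger after heat while the ratio was smaller. The order differed between lists and measures: sums over all 25 chaperones were 2.12-fold lower in A2AS in the heated pair and 2.02-fold lower in the unheated pair. HSP70 sums were 1.94-fold lower in the heated and 1.80-fold lower in the unheated pair, and HSP100 sums 3.51-fold and 2.48-fold lower in that order. HSP90 sums were 1.37-fold lower in the heated and 1.52-fold lower in the unheated pair. Photosynthesis genes had sums 2.14-fold higher in A2AS in the heated pair and 1.54-fold higher in the unheated pair, at 135901 CPM in A2AS unheated leaf and 88012 CPM in WT unheated leaf. In the chromosome 2 CAB cluster these were 3.43-fold in the heated pair and 1.89-fold in the unheated pair, at 21836 CPM in A2AS unheated leaf and 11531 CPM in WT unheated leaf.

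A set of heat-raised genes chosen without the leaf libraries was read in the heated leaf pair. Heat raised 140 genes by 2-fold or more in both anther genotypes, and 127 of them reached the minimum in heated leaf. Of these, 55 (43.3%) were at least 2-fold lower in A2AS heated leaf and 4 (3.15%) were higher, with a median log2 ratio of −0.89, against 6.51% lower and 3.44% higher over all compared genes. After median-ratio scaling 33 were lower and 4 higher, with a median of −0.62, against 2.69% lower over all genes. Without the listed chaperone, Hsf and MBF1 genes 104 remained, of which 41 were lower and 4 higher, with a median of −0.76, or 24 lower with a median of −0.49 after rescaling, so genes outside the listed chaperones were among the lower ones. Of 40 genes raised at least 8-fold in both anther pairs, 23 were lower (17 after rescaling) and none was higher. Of 44 measured genes that heat lowered in both anther pairs, 2 were higher and 2 lower. The heated anther library labelled A2AS held more HsfA2 than its WT counterpart, 39.3 CPM against 22.3 CPM, and the set includes that library.

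A test was possible only for both leaf pairs together. In limma, with the heat effect of each tissue in the model, 909 of 15220 genes (5.97%) were higher in A2AS leaf and 2578 (16.9%) lower at a Benjamini-Hochberg adjusted p of 0.05. The 2 residual degrees of freedom come from leaf and anther libraries together, and the leaf libraries alone leave 1. They reflect how the genotype difference varies with heat in both tissues and not a spread between plants. Median-ratio scaling gave 1421 genes higher and 687 lower of 15152 tested. Of the genes 2-fold different in the heated pair, 264 of the 300 higher and 479 of the 568 lower passed this test in the same direction. The heated pair is part of the test, so this overlap is largely built into the choice of genes. Nothing is read from it.

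By that test HsfA2 was lower in A2AS leaf, with a log2 difference of −2.21 ± 0.34 (SE; adjusted p = 0.0146 by limma). Of the CAB list 20 of 23 genes passed as higher, and 7 of 9 photosystem and Calvin cycle genes did so, against 5.97% of all genes. The widest was Solyc06g069730, at 3.39 ± 0.16 (adjusted p = 0.00297 by limma). Of the chaperones 10 of 12 sHSP, 7 of 7 HSP70, 3 of 4 HSP90 and 2 of 2 HSP100 genes passed as lower, with HSP21 (Solyc03g082420) at −2.85 ± 0.17 (adjusted p = 0.00418 by limma). Of the flavonoid genes 9 of 10 passed as lower. Over all genes 16.9% passed as lower. Solyc06g069730 and HSP21 also had the widest ratios of their lists in the heated pair, which is part of the test. After median-ratio scaling the lower counts were 7 of 12 sHSP, 6 of 7 HSP70, 1 of 4 HSP90, 1 of 2 HSP100 and 7 of 10 flavonoid genes, and the CAB count was 22 of 23 higher. Over all 15152 genes tested after that scaling, 687 passed as lower and 1421 as higher.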

How the data were processed

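The deposited tables give CPM values for each gene and library (headed TPM), with no length term. Per the labels' protocols, poly(A) RNA was bound and the last 500 bp were read, with 1 read for each transcript. FastQC is named in the submitters' processing notes. Not given in the sources used here are the aligner, the genome build, the annotation, strand use and the counting of reads that match several genes.

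Library size was worked out from the CPM step of 1 read. In the heated leaf libraries 83.9% (A2AS) and 78.2% (WT) of positive values came out as whole reads, to within 0.001 of one. That is short of the 95% required for a count model, so none was run. No gene above 0 had the same value in both heated leaf libraries. Ratios were log2((A2AS + 1)/(WT + 1)), which understates the change of low genes, for genes averaging 10 CPM or more over the pair, and 2-fold or more was counted as different. Exact (Clopper-Pearson) 95% intervals came from rounded reads. They cover counting error only, and without molecular identifiers a read is not an independent molecule. Reads that fit several genes are not allowed for in them. No listed Rubisco or HSP90 gene had whole-read values in both heated leaf libraries. Alternatives were median-ratio scaling within the pair, totals without the 100 most abundant genes, pseudocounts of 0.5 and 5, no minimum, a minimum of 50 CPM and a 4-fold threshold.

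The test used limma 3.58.1 in R 4.3.3 on log2(CPM + 1) of all 8 libraries, over genes averaging 2 CPM or more, with trended empirical Bayes variances, genotype within tissue and heat within tissue as terms, and Benjamini-Hochberg adjustment over all genes. Other steps used Python 3.11.15 with pandas 2.3.3, numpy 2.4.6 and scipy 1.17.1. Both steps were also run on simulated data. The simulations held counting noise or random noise of a fixed size, not measured variation between plants, so they do not bear on it.

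The members and the 25 gene lists (190 IDs, 189 of them found) were chosen with earlier results of these data known. Gene names rest on published tomato nomenclature: no deposited table pairs an ID with a name, and none of the 41476 entries of the RefSeq gene table (assembly SLM_r2.1) holds an ID of this form. Of 71 names found there by symbol, 69 lay on the chromosome given in the ID. Named genes are HsfA2, the 4 widest ratios of each list, all members at least 4-fold different, all members of short lists, the smallest limma p values, and 2 unlisted IDs in each direction. Not all of them are described in the text. Among those left out are PR1b, CHI3, SUS3, SPS, SUT1, ELF3, LHY, EID1 and some CAB genes such as Solyc02g070950 (7.05-fold higher). The lipid transfer genes, with log2 ratios from −1.04 to 0.58 in heated leaf, were also left out. Solyc03g005760, Solyc06g076560, Solyc09g011080, Solyc11g020330, PAO, GLK1 and some genes in the plot of levels were added after their values were seen.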

Additional observations from a re-analysis of the deposited data

Results flagged for a closer look

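Among the named genes, 4 lay on opposite sides of 1 in the heated and unheated leaf pairs, each with counting intervals that left out 1. The differences between the pairs were not tested, since each pair is 1 library a side. AOC (Solyc02g085730), allene oxide cyclase of jasmonate synthesis, had 296 CPM in A2AS heated leaf and 164 CPM in WT heated leaf, 1.81-fold higher (1.70 to 1.92), and 287 CPM in A2AS unheated leaf against 341 CPM in WT unheated leaf. Its log2 ratio was 1.10 larger in the heated pair. JAZ3, a repressor of jasmonate signalling, had 127 CPM in A2AS heated leaf and 93.9 CPM in WT heated leaf, and 46.9 CPM in A2AS unheated leaf against 58.9 CPM in WT unheated leaf, a log2 difference between the pairs of 0.76. JAZ1, of the same family, had 178 CPM in A2AS heated leaf and 158 CPM in WT heated leaf, and 67.8 CPM in A2AS unheated leaf against 90.7 CPM in WT unheated leaf, a log2 difference of 0.58. Calnexin, a folding protein of the endoplasmic reticulum, went the other way, with 158 CPM in A2AS heated leaf and 217 CPM in WT heated leaf, and 204 CPM in A2AS unheated leaf against 191 CPM in WT unheated leaf, a log2 difference of −0.55. After median-ratio scaling the unheated log2 ratio of AOC was −0.04, which is still below 0 but close to it.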

How the results depend on the processing

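Counts over all genes depended on scaling and thresholds. Genes higher in A2AS heated leaf (300) numbered 506 with median-ratio scaling, 453 with totals without the 100 most abundant genes, 532 with no minimum, 155 at a minimum of 50 CPM and 52 at 4-fold. Genes lower (568) numbered 235, 286, 1036, 190 and 38 in the same order, and 350 with a pseudocount of 5. Genes higher in both leaf pairs (110) numbered 213, 179, 185, 53 and 7 in that order, and genes lower in both (151) numbered 63, 78, 243, 43 and 11, and 87 with a pseudocount of 5. Anther heat-raised genes lower in heated leaf (55) numbered 33 with median-ratio scaling and 29 at a minimum of 50 CPM, where lower flavonoid genes numbered 3 in place of 5. The HsfA2 log2 ratio was −1.79 with a pseudocount of 5, against −2.61. The limma count (3487) was 2108 with median-ratio scaling and 0 with no minimum, where 7160 of 28978 genes had an unadjusted p under 0.05 and the smallest adjusted p was 0.0558 by limma. Lower chaperones (13) ranged from 9 to 13 and higher photosynthesis genes (23) from 22 to 28 over the scaling, pseudocount and minimum alternatives. Of 356 recomputed ratios of 89 named genes 132 moved beyond their counting interval and none of at least 2-fold changed sign. Of the narrower ones 6 values of 4 genes did, with median-ratio scaling BiP Solyc03g082920 (0.18), HSP90 Solyc07g065840 (0.05), APX1 (0.12) and TKN2 (0.03), and without the 100 most abundant genes BiP (0.11) and APX1 (0.05). Of 105 list medians 6 changed sign: ER folding (−0.28 with no minimum), clock (0.04 with median-ratio scaling, 0.06 at 50 CPM), antioxidant (0.18 with median-ratio scaling, 0.12 without the 100 most abundant genes) and reference genes (0.02 with median-ratio scaling). The causes of these moves were not tested. No paired analysis was possible because each group has 1 library and the labels carry no replicate number. At 6243965 reads, 3 reads are 0.480 CPM in A2AS heated leaf, which limits low genes.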
